A study of Mus musculus with 26 samples.

Results

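The 410 C-to-U editing sites found in bulk RNA of bone marrow-derived macrophages were divided by whether the same chromosome and coordinate also stood in the list of sites edited in single macrophages of the same kind. The bulk list held 55 sites that were also in the single-cell list, here called kept, and 355 that were not, here called absent. The kept sites were 13.4% of the bulk list (exact 95% interval 10.3% to 17.1%) and 32.2% of the 171 sites of the single-cell list. They lay in 28 of the 275 genes of the bulk list.

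The bulk list came from 1 library of wild-type and 1 library of Apobec1 -/- macrophages, both C57BL/6J, and gives the reads and the editing rate of the wild-type library. The knockout library, which lacks the editing enzyme throughout, entered only through the authors' comparison of the genotypes. The single-cell list came from 24 wild-type C57BL/6J macrophages captured on a microfluidic chip, whose libraries had been picked by concentration and size range, and it holds sites edited in at least 3 of the cells. Every culture was matured from bone marrow with M-CSF at 20 ng per ml and harvested 7 to 9 days after isolation. The marrow came from young adult mice, and the authors state that all 24 single cells came from 1 mouse. Within these lists, no kept or absent call was therefore repeated in another animal. The paper separately sequenced targeted regions of B2m, Anxa5 and Cybb in single macrophages of other mice. It saw edited transcripts of all of these genes there, but those data are not part of the lists compared here. With 1 bulk library the depth and rate of a site had no replicate. The single-cell list gives neither reads per cell nor sites below its minimum of cells, so from the list alone an absent site cannot be told as uncovered, unedited or edited in too few cells, and absent does not mean unedited in every cell. By the authors' own counts, nearly all bulk sites were covered in at least 1 cell, and many were also edited in at least 1. Of 10 macrophage marker genes, Mpeg1 and Cybb had a bulk site, and none of the markers of T cells, B cells, neutrophils, erythroid cells or fibroblasts had one. The lists hold editing and not expression, so a marker without a site was not shown to be silent.

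APOBEC1 is a cytidine deaminase that turns C into U in messenger RNA. It was first known for an edit in the apolipoprotein B transcript that creates a stop codon, and in macrophages most of its targets lie in 3′ untranslated regions, where the protein sequence stays the same. The enzyme prefers a C that follows an A in AU-rich sequence, often with a mooring sequence a few bases downstream.

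The sequences of 9 sites show the range of the comparison, read 5′ to 3′ along the RNA strand from the RefSeq GRCm38 genome, with the edited C in capitals. The first 4 were kept, and the other 5 were absent although they were edited highly or covered deeply in bulk.
B2m, kept, chr2:122152892-122152921, plus strand: accctctgtaCttctcattacttggatgca
Spp1, kept, chr5:104440910-104440939, plus strand: agcaaatttaCtgaaacaagcagaattaaa
Cybb, kept, chrX:9435707-9435736, minus strand: tctttctgtaCttagttcttagaatttagt
Cd36, kept, chr5:17783068-17783097, minus strand: aaatcttgcaCttttattaaaagtccatca
Cd36, absent, chr5:17783118-17783147, minus strand: cagcatatttCaaaagattaatatgtcact
Serinc1, absent, chr10:57515966-57515995, minus strand: agtaaatcgaCtagaaaattagtatgccac
Prkacb, absent, chr3:146730628-146730657, minus strand: gtggggatgaCaatttgattattataattt
Lpl, absent, chr8:68906619-68906648, plus strand: taattcattaCagtatatacacatccatgc
Cybb, absent, chrX:9435572-9435601, minus strand: aatttgaataCttgcagccattgtatatga
All 9 lie in annotated 3′ untranslated regions. In 8 of them an A precedes the edited C, and in the absent Cd36 site a T does.

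A pair of further windows shows sites so close that a read over one nearly always covers the other. In both windows the C capitalised first was absent and the next one kept.
Atp6ap2, chrX:12616370-12616399, plus strand: aatcgcttagttCtggaCgtgtatatgact
Degs1, chr1:182276393-182276422, minus strand: gcacctaataaaCtgaaCtgttaatcatat

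Kept sites had more reads in the bulk library than absent sites. Depth, the number of reads over a site in the wild-type library, had a median of 62 at kept sites (23 to 108) and 27 at absent sites (17 to 98), against 30 over all 410. None of the 119 sites with 17 to 20 reads was kept (exact upper limit 3.05%), nor was any of the 135 sites with 22 reads or fewer. The share kept was 4.12% at 21 to 30 reads, 6.85% at 31 to 40, 17.6% at 41 to 50, 40% at 51 to 60, 39.0% at 61 to 80 and 66.7% at 81 to 108. Above and below 50 reads the split was 40 of 90 sites with 50 reads or more against 15 of 320 with fewer. The groups overlapped, since 31 absent sites (8.73%) reached the kept median and 2 kept sites lay at or below the absent median.

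In a logistic regression over all 410 sites with depth and rate as terms, the odds of being kept rose 9.75-fold for each doubling of depth (95% interval 5.37 to 17.7, Wald test with errors clustered by gene, adjusted p = 1.97e-13). P-values were adjusted by Benjamini-Hochberg over the 3 terms tested, unless stated otherwise. Sites of a gene share a transcript and all sites share 1 bulk library and 1 set of cells, so these p-values cover the spread over genes and not a repeat of the experiment. Bulk depth combines how abundant a transcript is with how its reads spread along it, and these cannot be told apart in this fit. Duplicate reads were removed before counting, which limits how far depth can rise at a site with reads of 100 nucleotides. The highest depth was 108, so depth may understate the abundance of the most abundant transcripts.

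**Figure D1:**
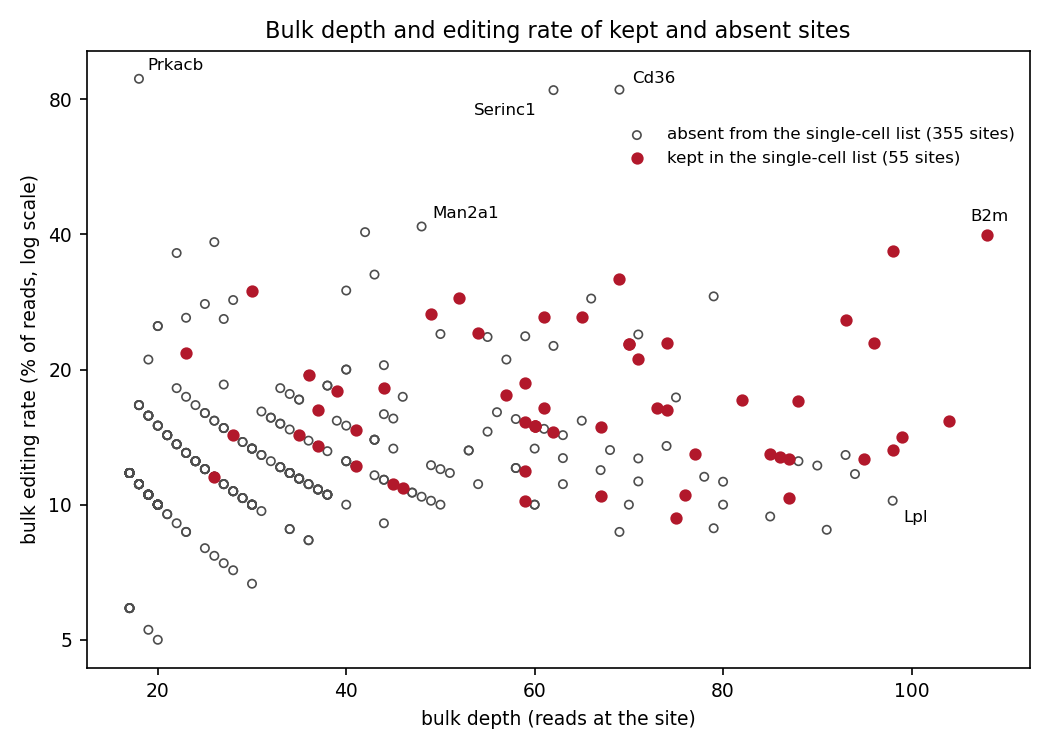
Bulk depth in reads against bulk editing rate in percent (log scale) for each of the 410 sites, filled for kept and open for absent sites. Kept sites lie mostly to the right, with a median depth of 62 reads against 27, and the 3 sites above 50% are all absent.

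Editing rates were higher at kept sites over most of the range, and the highest rates were all absent. The bulk rate had a median of 15.4% at kept sites (9.33% to 39.8%) and 11.8% at absent sites (5.00% to 88.9%). The share kept was 1.52% of the 66 sites edited at up to 10%, 5.33% of the 150 above 10% and up to 12%, 17.2% of the 99 up to 15%, 24.1% of the 54 up to 20% and 43.3% of the 30 up to 30%. Above that it was 3 of 8 sites up to 50% and 0 of 3 beyond. At equal depth, the odds of being kept changed 1.22-fold for each 10 percentage points (95% interval 0.783 to 1.91, adjusted p = 0.377), which did not pass the test. Without the 3 sites above 50%, in Prkacb, Cd36 and Serinc1, the same odds ratio was 2.50 (adjusted p = 0.00187), so the outcome of this test rested on those sites.

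Depth and rate together sorted the sites further. Among sites of up to 40 reads edited at up to 12%, 1 of 178 was kept, against 11 of 17 sites with at least 61 reads and a rate above 20%. The number of edited reads, which is depth multiplied by rate, gave 0 of 112 kept at 1 or 2 edited reads, 2 of 132 at 3 or 4, 23 of 112 at 5 to 9, 25 of 45 at 10 to 19 and 5 of 9 at 20 or more. Reads were also summed over sites, so a read over several sites counted at each. The kept sites held 23.6% of the summed 15078 reads and 28.2% of the 2294 edited reads. Of the reads summed in this way, 18.2% were edited at kept sites and 14.3% at absent sites.

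**Figure D2:**
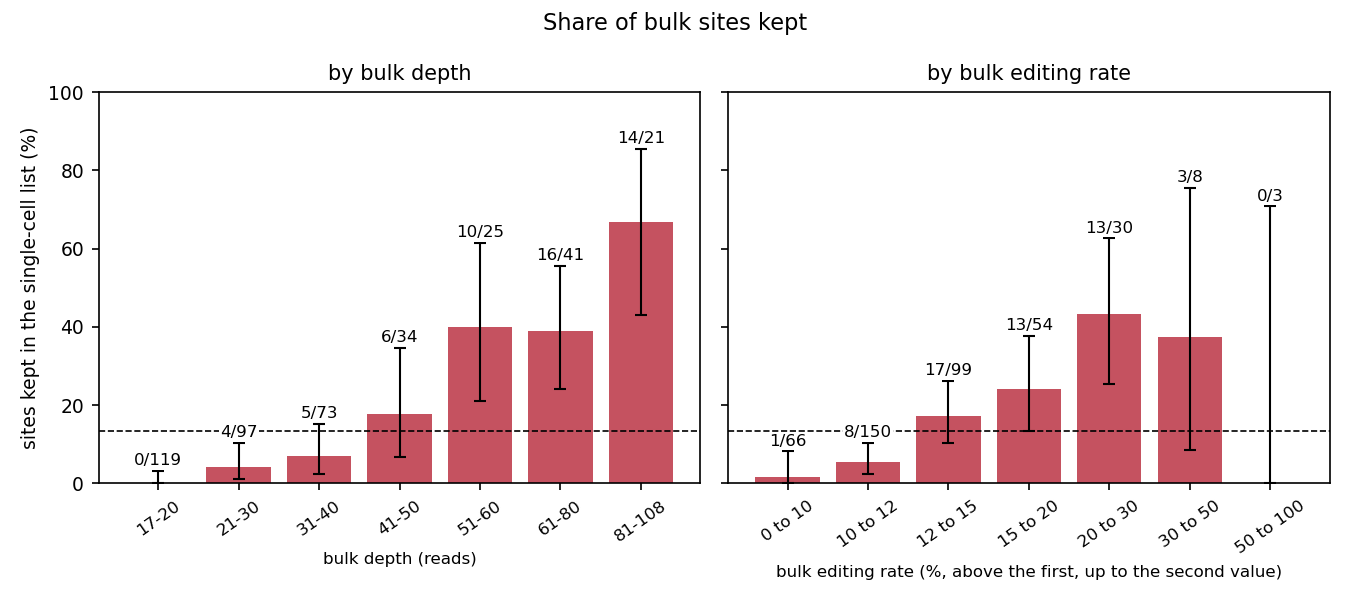
Percent of bulk sites kept in each bin of bulk depth (left) and bulk editing rate (right), with kept over all sites above each bar, exact 95% intervals as error bars and the overall 13.4% dashed. The share is 0 of 119 at 17 to 20 reads and 14 of 21 at 81 to 108 reads. By rate it is 1 of 66 up to 10%, 13 of 30 between 20% and 30%, and 0 of 3 above 50%. Intervals take sites as independent and cover counting error only.

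B2m, which encodes the invariant chain of MHC class I molecules, had the deepest kept sites, with 6 of its 6 sites kept. Its kept sites had 96 to 108 reads, and the highest rates among all kept sites were 39.8% at 122152902 (30.5% to 49.7%, exact 95% interval, 108 reads) and 36.7% at 122152740 (27.2% to 47.1%, 98 reads). In the cells the first of these was edited at 27.6% in the lowest, 41.9% in the median and 71.8% in the highest cell, and the second at 19.6%, 30.6% and 48.3%. Every cell was therefore edited at both, and 4 of the 6 B2m sites were edited in all 24 cells. The next kept rate was 31.9% (9435726, 69 reads) in Cybb, the catalytic subunit of the phagocyte NADPH oxidase. Klhl9, a substrate adaptor of a ubiquitin ligase, followed with 30% on 30 reads, App, the amyloid precursor protein gene, with 28.8% at 84954513 on 52 reads, and another Cybb site with 26.5% (9437067, 49 reads). Msn (moesin, a linker of actin to the membrane) and the purine salvage gene Hprt both had 26.2%, Anxa5 (annexin A5, a phospholipid-binding protein) 25.8% and the adhesion molecule gene Nptn 24.1%.

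The kept sites with the fewest bulk reads showed where the comparison was thinnest. Arl8b, a small GTPase that positions lysosomes, had 5 edited of 23 reads (21.7%, interval 7.46% to 43.7%) and was edited in 6 of 21 covered cells, from 0% to 83.3% with a median of 0%. A site of Lamp2, a lysosomal membrane protein, at 38420739 had 3 edited of 26 reads and was edited in 3 of 17 covered cells. Tram1, a protein of the ER translocation channel, followed with 28 reads at 13565907, Klhl9 with 30, App with 35 at 84954480, Sh3bgrl with 36 at 109160300, and Degs1, a ceramide synthesis enzyme, and the lectin receptor gene Cd302 with 37 each. Rtn4, which shapes ER tubules, stood apart in this group, as its site at 29742881 had 39 reads and was edited in 20 of 24 cells, with a median of 9.09% and a highest value of 28.6%. The next depth was 41 reads, in Atp6ap2 and Sh3bgrl.

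Several absent sites were more strongly edited in bulk than any kept site. Of the 10 highest rates in the bulk list, 8 were absent and 2, both in B2m, were kept. Prkacb, which encodes one catalytic chain of protein kinase A, had 16 edited of 18 reads (88.9%, interval 65.3% to 98.6%) at 146730647, and its other site, with 19 reads, was absent too. Serinc1, a membrane protein of the serine incorporator family, had 52 edited of 62 reads at 57515985 (83.9%, 72.3% to 92.0%). Neither gene had any site in the single-cell list. Man2a1, a Golgi mannosidase, had 41.7% (48 reads), Sppl2a, an intramembrane protease, 40.5% (42 reads), Lamp2 38.5% at 38421565 (26 reads), the caspase gene Casp6 36.4% (22 reads), Tfrc, the transferrin receptor, 32.6% (43 reads), Sh3bgrl 30% at 109161052 (40 reads) and Cybb 29.1% at 9435591 (79 reads). Of these, Cd36, Lamp2, Sh3bgrl and Cybb had other sites that were kept. In all, 64 absent sites (18.0%) were edited at or above the kept median rate.

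The deepest absent sites mostly had rates near 10%. Lpl, lipoprotein lipase, had the deepest absent site with 98 reads edited at 10.2% and another with 93 reads edited at 12.9%. Mpeg1, the macrophage pore-forming protein perforin-2, had absent sites of 94 and 90 reads (11.7% and 12.2%). Tmem50a followed with 91 reads, Degs1 at 182276568 with 88, the lysosomal protease gene Ctsl with 85, and Creg1, a lysosomal glycoprotein, and Rtn4 at 29742834 with 80 each. Next, at 79 reads, came Sgpl1, which degrades sphingosine 1-phosphate, and the Cybb site named above. Beyond Cybb, the rates of these sites lay between 8.79% and 12.9%, below the kept median of 15.4%. Over all absent sites with 61 to 108 reads, rates were more mixed. There, 15 were edited at up to 12%, 11 above 12% and up to 20%, and 6 above 20%.

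The absent sites fell into 3 kinds by what the single-cell list held for their gene. The largest kind was 291 sites in 227 genes with no single-cell site at all, with a median depth of 25 reads. A further 34 sites lay in 16 genes that had another bulk site kept, with a median depth of 58 reads, close to the 62 of kept sites. The remaining 30 sites, in 20 genes whose single-cell sites were all at other positions, had a median depth of 35. Among the 50 absent sites with 50 or more reads, 25 were in 21 genes without a single-cell site, such as Mpeg1, Ctsl, Creg1, Sgpl1 and Serinc1. The ribosomal precursor Rn45s (71 reads, 23.9%), the glycolipid transfer protein gene Gltp (71 reads, 11.3%), the small GTPase gene Rac1 (69 reads, 8.70%) and Adam17 (68 reads, 13.2%) belonged there too.

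Having another single-cell site in the gene went with being kept. Of the 55 kept sites 42 (76.4%) had another single-cell site in the same gene, against 64 of 355 absent sites (18.0%). Read the other way, 42 of 106 sites with such a neighbour were kept and 13 of 304 without one. At 50 reads or more these shares were 55.4% of 56 and 26.5% of 34, and below 50 reads 22.0% of 50 and 1.48% of 270. These counts come from the same 24 cells as the split itself, so they are given without a test.

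Genes with many bulk sites kept more of them. The share kept was 8 of 205 sites in genes with 1 bulk site, 9 of 82 in genes with 2, 9 of 57 in genes with 3 and 29 of 66 in genes with 4 or more. With depth and rate in the model, the odds of being kept rose 1.97-fold for each doubling of the number of sites of the gene (95% interval 1.48 to 2.62, adjusted p = 4.46e-06), and the odds ratio for depth was then 7.61 (3.98 to 14.6). At 50 reads or more the shares were 7 of 20 in genes with 1 site and 33 of 70 in genes with several, and below 50 reads 1 of 185 and 14 of 135. The 1 site below 50 reads in a gene with no other bulk site was that of Arl8b.

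A few genes carried much of the overlap. App kept 9 of 12 sites, B2m 6 of 6 and Atp6ap2 4 of 9, followed by 3 each in Atp6ap1, Cybb, Lamp2, Msn and Sh3bgrl. The first 3 genes with any pair of those tied held 25 of the 55 kept sites (45.5%). All sites were kept in 12 genes, of which 8 had 1 bulk site and 4 had several: B2m, Atp6ap1 and Msn with 3 each, and Tram1 with 2. Atp6ap1 and Atp6ap2 encode accessory subunits of the vacuolar proton pump that acidifies lysosomes. By contrast, 50 of the 70 genes with several bulk sites kept none. Among genes with at least 4 sites these were Tmem30a, a subunit of phospholipid flippases, with 8 sites of 17 to 50 reads, and the membrane proteases Adam17 and Adam9 with 4 each, of 29 to 68 and 33 to 46 reads.

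Within genes, neither depth nor rate passed the test between kept and absent sites. The 16 genes with both were Aplp2, App, Atp6ap2, Cd302, Cd36, Cybb, Degs1, Hprt, Itm2b, Klhl9, Lamp2, Mbnl1, Nptn, Rtn4, Sh3bgrl and Tmem50a, with 33 kept and 34 absent sites. The mean depth of kept sites was higher than that of absent sites in 8 genes and lower in 8, and the mean rate was higher in 11 and lower in 5. A conditional logistic regression with the gene as stratum gave an odds ratio of 1.59 for each doubling of depth (0.567 to 4.44, adjusted p = 0.758) and 0.964 for each 10 points of rate (0.577 to 1.61, adjusted p = 0.887). In that fit p-values were adjusted over depth and rate alone. Over all sites of genes with any single-cell site the depth odds ratio was 3.88 (adjusted p = 0.000206). The within-gene interval is wide and includes that value, so a depth effect of that size within genes was neither shown nor excluded. The genes of both fits were picked through the single-cell list that also defines kept. The within-gene interval lies below the odds ratio of 9.75 over all sites (5.37 to 17.7), which also compares sites of different genes.

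App gave the fullest view of a mixed gene. Its 12 sites were read 35 to 76 times, and the kept site of highest rate (84954513, 15 of 52 reads, 28.8%) had the same rate as an absent site (84954949, 19 of 66 reads, 28.8%). The other absent sites, at 84954817 (10.0%) and 84954841 (14.8%), lay 23 and 27 nucleotides from a single-cell site. The kept sites of lowest rate, 9.33% at 84954779 and 10.5% at 84954794, were edited in 10 and 6 cells. In App, then, kept and absent sites overlapped in depth and in rate.

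Cd36, a scavenger receptor for lipids, held the sharpest contrast between neighbours. At 17783137, 58 of 69 reads were edited (84.1%, interval 73.3% to 91.8%) and the site was absent, while 50 nucleotides away at 17783087, 12 of 74 reads were edited (16.2%, 8.67% to 26.6%) and the site was kept, in 5 of 15 covered cells with a highest value of 90.0%. The single-cell list held 7 sites of Cd36 in all, so the gene was covered in some cells. Cybb kept 3 of 4 sites, and its absent site at 9435591 (29.1%, 79 reads) was deeper than every kept site of the gene (49 to 70 reads), 2 of which had lower rates. Its kept sites were edited in 14 of 23, 13 of 24 and 9 of 24 covered cells. In Lamp2, 3 of 9 sites were kept, with rates of 10.2% to 11.5%, while the absent sites reached 38.5%, and in Sh3bgrl the absent site at 109161052 (30%) exceeded the kept sites (14.6% to 21.1%).

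Atp6ap2 showed the closest split. The absent site at 12616382 had 9 edited of 71 reads (12.7%) and the kept site 5 nucleotides downstream had 16 of 70 (22.9%), with exact intervals that overlap (5.96% to 22.7% and 13.7% to 34.4%). The kept site was edited in 13 of 23 covered cells, with a mean of 20.7% ± 27.4 (SD over cells). Further along, the absent site at 12616481 had 23.7% of 59 reads. In Degs1 the kept site had 6 of 37 reads edited and the absent site 5 nucleotides away 6 of 39, so neither depth nor rate set them apart.

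**Figure D3:**
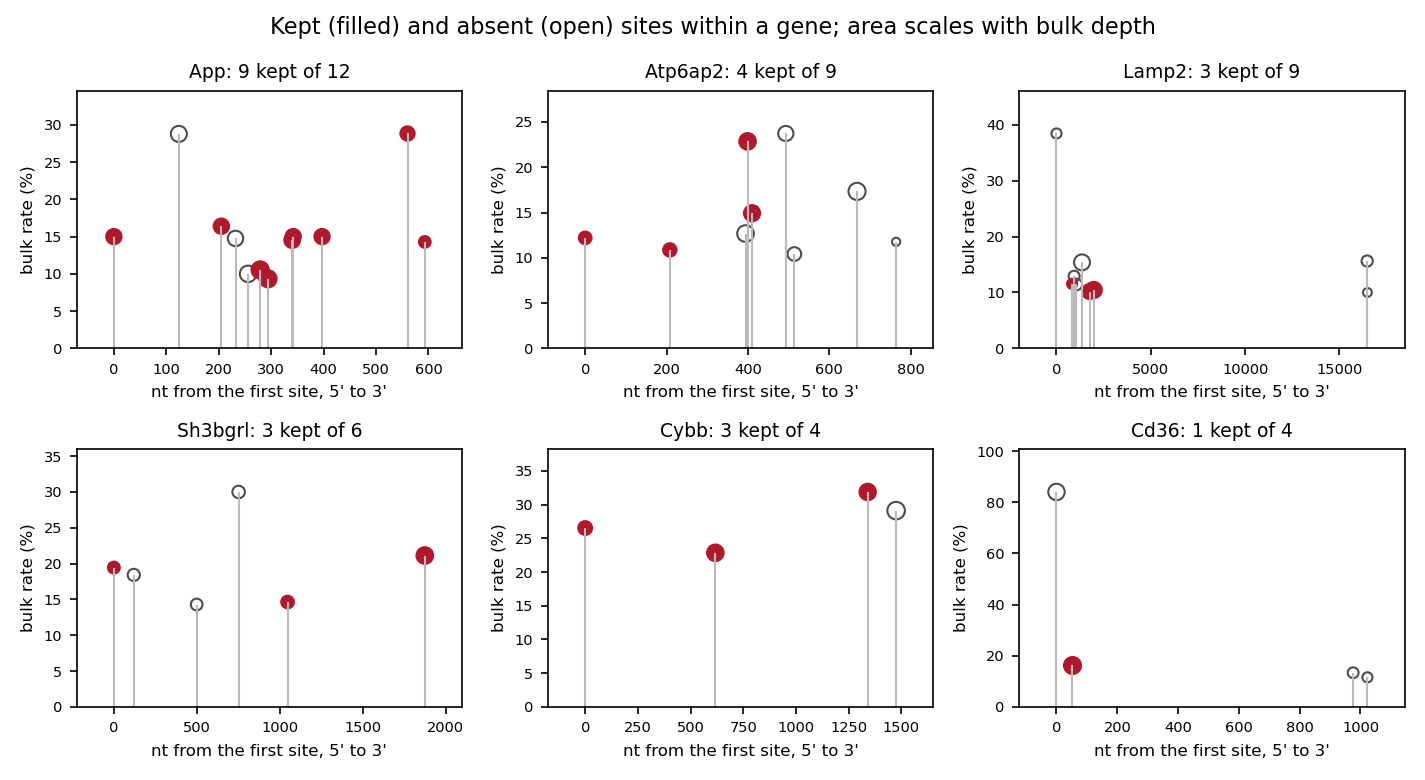
Bulk editing rate in percent against distance in nucleotides from the first bulk site of the gene, along the transcript, for 6 genes with kept (filled) and absent (open) sites. Symbol area scales with bulk depth, and axes differ between panels. In Cd36 the absent site at 84.1% stands beside a kept site at 16.2%, and in App an absent and a kept site both reach 28.8%.

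Neighbouring sites were compared in pairs along each gene. Of 135 neighbouring pairs, 22 were both kept, 28 differed and 85 were both absent. Among the 64 pairs closer than a read length of 100 nucleotides, 15 were both kept, 13 differed and 36 were both absent. In the 13 that differed, the kept site was the more deeply read in 4 and the less deeply read in 8, and had the higher rate in 10 and the lower in 3. Pairs of a gene share sites and reads, so these counts carry no test.

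Some absent sites had a single-cell site almost on top of them. In 5 cases it lay within 10 nucleotides, and in 31 within 100. Besides Atp6ap2 and Degs1, these 5 were Rtn4 at 29742834 (80 reads, 11.2%), the Ugt1a cluster at 88218977 (27 reads, 25.9%) and Tmem59 at 107200938 (36 reads, 8.33%), where the nearby single-cell site was itself not in the bulk list. The one near Rtn4 was 6 nucleotides away and edited in 15 of 24 covered cells, with a mean of 9.03% ± 11.6 (SD over cells). Counting positions within 1 nucleotide as shared left the number of kept sites at 55.

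Region could not be compared closely, because nearly all sites shared it. The label UTR3 was given to 395 of the 410 sites, of which 55 (13.9%) were kept. No site outside it was kept, among 5 exonic, 5 intronic, 3 ncRNA_UTR3 and 2 ncRNA_exonic sites. These lay in Bptf, Tmem243, Ube3b, Oasl1, Gadd45a, Itsn2, Slamf7, Mkrn1, Lpl, Nrp1, Cpq, Smarca2, Msr1, Rn45s and 2610001J05Rik. Apart from Rn45s with 71 reads and 2610001J05Rik with 44, they had 17 to 27 reads, a depth at which kept sites were rare in UTR3 as well. By the GENCODE vM21 annotation, 398 sites were placed in 3′ untranslated regions, including all 55 kept sites.

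Sequence around the site differed little between the groups, while kept sites lay nearer the stop codon in the median. An A stood 5′ of the edited C at 51 of 55 kept sites (92.7%) and 306 of 355 absent sites (86.2%), against 87.1% of all. The 5 sites with C and the 6 with G in that place were all absent. The letters TGAT, searched on the RNA strand only in the 19 bases downstream, occurred at 7 kept (12.7%) and 40 absent sites (11.3%), against 11.5% of all bulk sites. A+T made up a median of 66.3% of the 101 bases around kept sites and 67.3% around absent ones. Kept sites lay a median of 377 nucleotides from the nearest annotated transcript end (30 to 2662) and absent ones 440 (10 to 7501). On the transcript with the longest 3′ untranslated region over the site, the order was the reverse, with medians of 646 and 612 to its end. From the stop codon of that transcript the medians were 597 and 822, in untranslated regions of 1918 and 1849 nucleotides. The ranges overlapped throughout, and none of these was tested.

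Chromosome X held a large part of the overlap. Of 57 bulk sites on X, 20 (35.1%) were kept, in 7 genes: Atp6ap1, Atp6ap2, Cybb, Hprt, Lamp2, Msn and Sh3bgrl. On the autosomes 35 of 353 (9.92%) were kept. Sites on X were also deeper, with a median of 41 reads against 28. At 50 reads or more, 14 of 24 sites on X and 26 of 66 on the autosomes were kept. Sites of these few genes are not independent, and the difference was not tested.

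By the roles of their genes, the 4 groups with the largest shares kept had median depths of 57 to 98 reads. The MHC class I assembly genes kept 7 of 9 sites (median depth 98), with B2m and the chaperone gene Canx kept and the peptidase gene Erap1 absent at 17 and 20 reads. The vacuolar proton pump kept 7 of 12 (median depth 68.5), the phagocyte NADPH oxidase 3 of 5 (median 69, all in Cybb) and the APP family and membrane proteases 11 of 29 (median 57, in App, Aplp2 and Itm2b). These compare with 13.4% kept and a median depth of 30 over all bulk sites. The lists were chosen with earlier results of these data known and do not test these groups.

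The other gene groups given here kept 1 to 4 sites each. Lysosomal genes kept 4 of 25 sites (median depth 32), in Lamp2 and the acid ceramidase gene Asah1, while Ctsl and Creg1 were absent at 78 to 85 reads. Uptake receptors kept 2 of 12, in Cd36 and Cd302, with Cd93 (62 reads, 22.6%) absent. The ER and Golgi kept 4 of 30, in Rab1, Rtn4 and Tram1, and the cytoskeleton and adhesion genes 4 of 25, in Msn and Nptn. Secreted factors and their receptors kept 1 of 9, the osteopontin gene Spp1, with the TGF-β receptor gene Tgfbr2 (60 reads, 13.3%) absent. Endosome and vesicle traffic kept 1 of 16 (Arl8b), lipid metabolism 1 of 20 (Degs1), and phospholipid flipping and binding 1 of 10 (Anxa5).

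Once kept, a site could be edited in few cells or in all. The 55 kept sites were covered in 15 to 24 cells (30 of them in all 24) and edited in 3 to 24, with a median of 10. They were edited in at least 12 cells at 22 sites and in fewer than 6 at 11. The mean over covered cells ran from 3.46% to 44.9%, with a median of 10.2%. The sites edited in all 24 cells were 4 of B2m and 1 of Spp1, at 104440920, whose 87 bulk reads were edited at only 10.3%. Its cells ranged from 1.32% to 11.9% with a median of 4.2%, a narrow spread at a low rate. At the other end, 4 sites were edited in exactly 3 cells, the minimum for the list. They were Cd302 (17 covered cells, highest 93.8%), Asah1 (15, highest 50%), and Lamp2 at 38419800 (19, highest 33.3%) and 38420739 (17, highest 90.0%). Asah1 had 73 bulk reads and a bulk rate of 16.4%, both above the kept medians.

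Sites read more deeply in bulk were edited in more of the cells. Across the 55 kept sites the number of edited cells ran with bulk depth (Pearson's r = 0.648, Spearman's rho = 0.603) and less with bulk rate (r = 0.443, rho = 0.411). Without the 6 B2m sites the values for depth were 0.434 and 0.444 and those for rate 0.383 and 0.411. The gap between depth and rate was thus smaller without that gene. Across the 55 sites bulk depth also ran with the number of covered cells (r = 0.300, rho = 0.450), and a cell counts as edited only where covered. These are descriptions across sites of 28 genes that share 1 bulk library and 1 set of cells. Exceptions ran both ways, since the Rtn4 site with 39 reads was edited in 20 cells and the Asah1 site with 73 in 3.

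**Figure D4:**
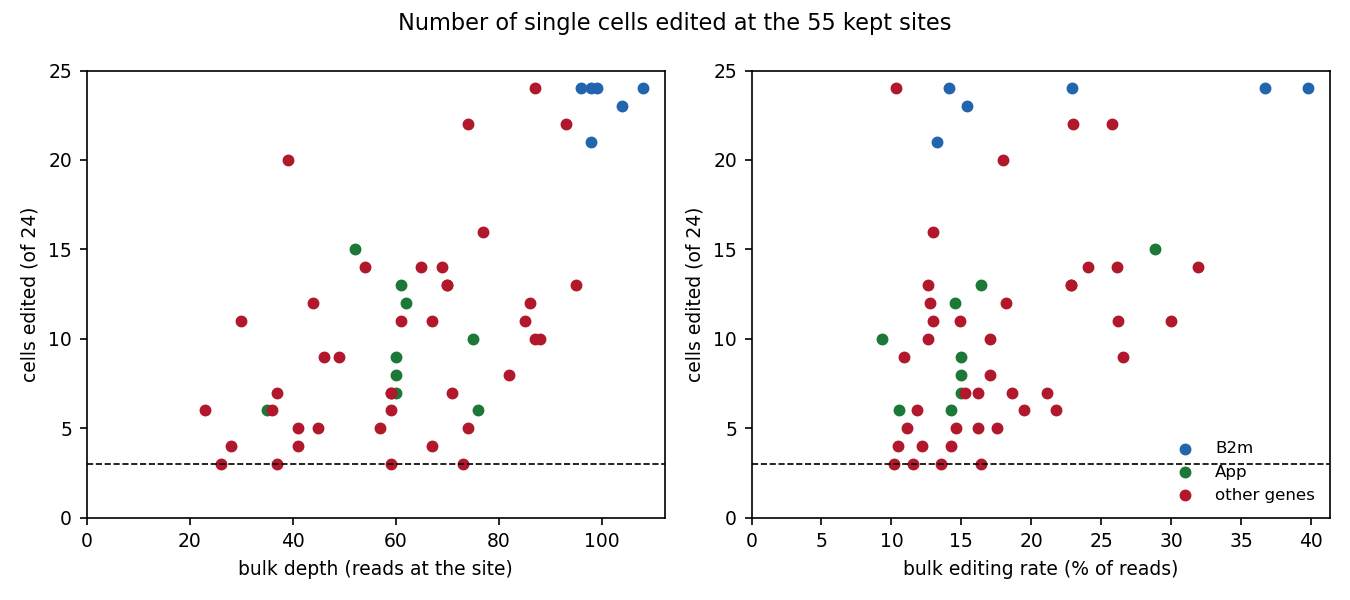
Number of the 24 cells in which each of the 55 kept sites was edited, against bulk depth in reads (left) and bulk editing rate in percent (right), with B2m and App coloured and the list minimum of 3 cells dashed. All B2m sites were edited in 21 to 24 cells, and the other sites spread from 3 to 24.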

How the data were processed

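Reads were trimmed (Trim Galore 0.2.5), mapped to mm10 (TopHat2) and cleared of duplicates (Picard) by the authors, who filtered bulk sites on a vector magnitude of at least 15 and an angle of at least 0.11 radians between genotypes, and excluded repeats, known variants and splice junctions. For each bulk site the authors deposited a read count (depth) and an edited fraction (rate). For each single-cell site they deposited an edited fraction in each of 24 cells, with no depth and no cell names. Any further filter of that list is not given in the sources used here. Edited reads were depth multiplied by rate, whole within 0.001. Gene symbols turned into dates, 3 bulk and 2 single-cell, were recovered from their positions.

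The lists were joined by chromosome and coordinate. Logistic regressions (statsmodels 0.14.6, Python 3.11.15) had log2 depth and rate per 10 points as terms, then log2 sites of the gene. Errors were clustered by gene, and Wald tests were two-sided. Only the fit of depth and rate was also run on simulated data, and its outcome is not reported here. Intervals on shares and rates are exact Clopper-Pearson 95% intervals and cover counting error only, since reads carry no molecular identifiers. Alternatives varied the terms, the sites and genes included, the cells required and each cell left out.

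The sites and gene lists were chosen with earlier results of these data known. Named are the 10 kept and 10 absent sites of highest rate, the 10 deepest absent and 10 shallowest kept sites, genes with both kinds, genes with at least 4 sites and none kept, sites edited in exactly 3 or all 24 cells, sites outside UTR3 and up to 4 genes of each list. Other genes and the sequences shown were chosen after their values were seen. One gene list is not reported here.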

Additional observations from a re-analysis of the deposited data

How the results depend on the processing

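The odds ratio for depth passed the test under 13 of 14 other settings, where it ran from 3.88 to 20.4 per doubling. The exception, chosen after seeing the data, was the fit with the gene as stratum over 67 sites of 16 genes, where depth gave 1.59 (adjusted p = 0.758) and rate turned to 0.964 (adjusted p = 0.887). That fit uses fewer sites and only differences within genes. The fit limited to genes with a single-cell site was also chosen after seeing the data. The rate did not pass except without the 3 sites above 50%, where it gave 2.50 (adjusted p = 0.00187). The odds ratio for sites per gene passed under all 7 settings tried (1.71 to 2.72). Requiring edits in at least 8 cells left 34 kept sites, and in at least 5 cells 48. Leaving out each cell in turn gave 53 to 55 kept sites, odds ratios for depth of 9.21 to 10.6, and for rate of 1.22 to 1.25, with no call changed. The list holds only sites edited in at least 3 cells, so leaving out a cell could never add a site. It could remove only the 4 kept sites edited in exactly 3 cells, so these fits could hardly differ from the main one. No paired analysis was possible because 1 bulk library was set against a list from 24 single cells that share no replicate number with it. Bulk depth limits each rate, as 112 absent sites rested on fewer than 3 edited reads, and the list used here gives no depth per cell.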

Other observations

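The single-cell list also held 116 sites in 75 genes that were not in the bulk list. Of these, 70 lay in 34 genes with a bulk site at another position, and 46 lay in 41 genes with none. They were edited in a median of 5 cells, against 10 at sites in both lists. The number reached 24 cells at sites of B2m and Spp1, and 32 of the 116 sites were edited in exactly 3 cells. Their mean rate over covered cells had a median of 6.34%, against 10.2% at sites in both lists. An A preceded the edited C at 90 of them (77.6%), UTR3 was the label of 106 (91.4%), and 39 lay within 100 nucleotides of a bulk site.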
